A study of Homo sapiens with 6 samples.

Results

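ATP-binding cassette (ABC) drug transporters were described in PC3, a human prostate cancer cell line labelled as docetaxel sensitive, and in PC3-DR, labelled as docetaxel resistant. The members were chosen as a list of 10 Ensembl transcript identifiers of 9 genes: ABCB1 (2 transcripts), ABCB4, ABCC1, ABCC2, ABCC3, ABCC4, ABCC5, ABCC10 and ABCG2. The deposited mRNA table held 7 of the 10 among 102731 transcripts. The symbols come from this list, since the deposited tables carry transcript identifiers only.

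Each line was represented by 3 libraries of total RNA. PC3 was grown in DMEM with serum. PC3-DR was selected from PC3 by 5 cycles of 48 h with docetaxel at 4 and 8 nM, by 12 cycles at 8 and 12 nM, and by continuous exposure from 10 nM in 5 nM steps to 50 nM, and was then held at 40 nM for 1 month. Separate cultures for the libraries are not mentioned in the labels, so p-values measure only the spread between these libraries, which may be technical. The labels also leave out whether PC3-DR was a single clone, and whether docetaxel was present when RNA was taken. Markers of prostate epithelial cells were not checked here, because the identifiers could not be paired with their symbols.

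ABC transporters use ATP to move substrates across membranes. ABCB1 encodes P-glycoprotein, the pump best known for exporting taxanes such as docetaxel, and raised ABCB1 is a classical route to taxane resistance in cultured cancer cells. ABCC10 is also able to carry taxanes, whereas ABCG2 is better known for other anticancer drugs, and most ABCC members export organic anions and drug conjugates.

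Values are FPKM, read numbers corrected for transcript length and for the size of the library. The library totals were inferred from the values and lay between 14411000 and 16186000, except for PC3-DR replicate 1 with 43153000. Whole read numbers were recovered in the same way, and intervals built from them cover counting error only. PC3-DR replicate 1 stood apart from the rest. Over tested transcripts its median log2 ratio to the mean of the other 5 libraries was -0.87, against between 0.02 and 0.33 for each other library. PC3 replicate 3 listed 48.3% of transcripts at 0, against between 31.4% and 37.7% elsewhere. Pairs of libraries correlated at between 0.134 and 0.490 across tested transcripts, which are not independent replicates. PC3 libraries correlated with each other at 0.402, 0.261 and 0.362, and PC3-DR libraries at 0.459, 0.490 and 0.452. Pairs between the lines ran from 0.134 to 0.478, the latter for replicate 1 of each line. The PC3 pairs lay within that range, so PC3 libraries did not stand together as a group.

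The 3 absent rows were ABCB1 ENST00000265724, ABCC1 ENST00000399410 and ABCC4 ENST00000376887. ABCC1 and ABCC4, which encode the multidrug resistance proteins MRP1 and MRP4, were therefore not analysed here. The table lists 0 transcripts at 0 in all 6 libraries, so an absent row and a row without reads cannot be told apart. None of the 10 identifiers was in the lncRNA table. For the 6 genes other than ABCB1 that have a listed row, the row is 1 transcript and not the gene's total, and for ABCB1 the gene is represented by ENST00000622132 alone.

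The 7 listed transcripts had low levels. The order of the means over all 6 libraries was ABCC5 (2.09 ± 0.67 FPKM), ABCC2 (1.95 ± 0.64), ABCB1 (1.54 ± 0.57), ABCC3 (1.15 ± 0.80), ABCC10 (0.73 ± 0.81), ABCB4 (0.64 ± 0.72) and ABCG2 (0.57 ± 0.63 FPKM; SD, n = 6 each). Each gap between neighbours in this order, between 0.069 and 0.417 FPKM, was smaller than the larger of their SDs. Among all transcripts of the mRNA table these means stood between the 60.4th percentile for ABCG2 and the 95.3rd percentile for ABCC5, and that of ABCB1 at the 90.2nd, so most of the table lay lower still.

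**Figure D1:**
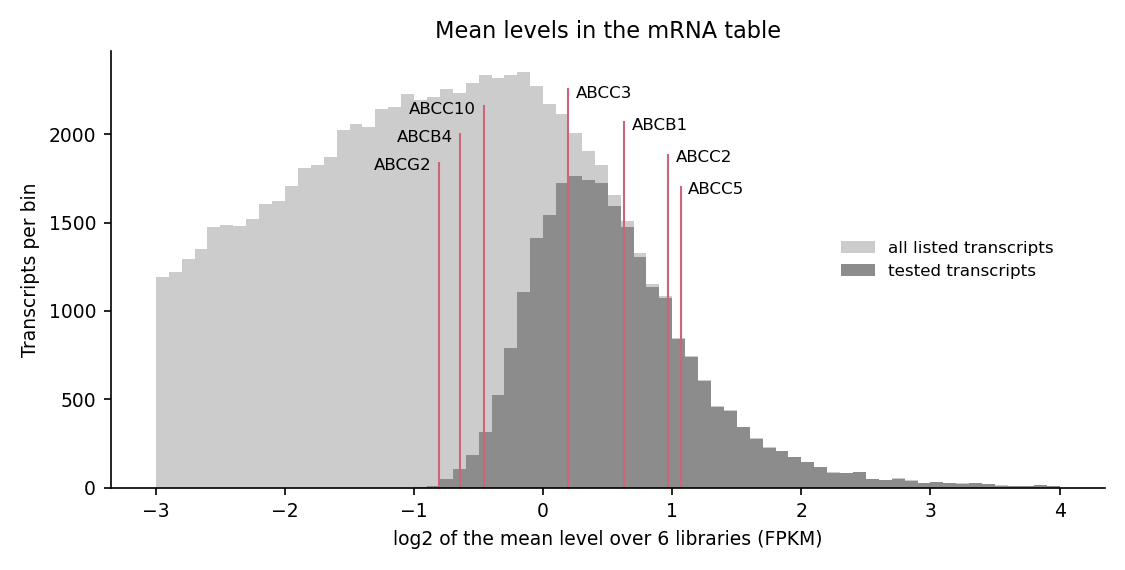
Number of mRNA-table transcripts (y axis) by the log2 of their mean FPKM over 6 libraries (x axis), for all listed transcripts (light) and tested ones (dark). Red lines mark the 7 ABC transporter transcripts, from ABCG2 at 0.57 FPKM to ABCC5 at 2.09 FPKM, and transcripts beyond the plotted range are not drawn.

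The test took transcripts that reached 1 FPKM in 3 or more of the 6 libraries. ABCB1, ABCC2, ABCC3 and ABCC5 met this condition, and ABCB4, ABCC10 and ABCG2 did not. In limma on log2(FPKM + 1), 0 of the 4 tested transporters differed between the lines at a Benjamini-Hochberg adjusted p under 0.05, against 0.00401% (1 of 24937) of all tested transcripts. At an unadjusted p under 0.05, 1 of the 4, ABCC3, was lower in PC3-DR and 0 were higher. Over all tested transcripts the share lower at that p was 3.64%. The lowest adjusted p among the 4 in limma was 0.790.

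ABCB1 ENST00000622132 stood at 1.81, 1.66 and 1.99 FPKM in PC3 replicates 1 to 3, from 140, 116 and 137 recovered reads on an inferred 4778 nt. In PC3-DR it stood at 0.43, 1.83 and 1.56 FPKM in the same order, from 88, 140 and 116 reads. PC3-DR replicates 2 and 3 lay close to the PC3 libraries, replicate 2 within their range and replicate 3 just below it, and only PC3-DR replicate 1 was far lower. The 95% Poisson interval of that library, 0.34 to 0.53 FPKM, did not reach those of the other 5 libraries, the lowest of which began at 1.28 FPKM. After rescaling by the median of ratios, PC3-DR replicate 1 stood at 0.72 and the other 5 libraries between 1.27 and 1.84. As deposited, PC3 averaged 1.82 ± 0.17 FPKM and PC3-DR 1.27 ± 0.74 FPKM (SD, n = 3 each).

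The ABCB1 difference, PC3-DR minus PC3, was -0.37 ± 0.37 (SE) on the log2(FPKM + 1) scale, with an adjusted p of 0.899 in limma. A two-sided exact permutation test of the same difference gave p = 0.3, where 3 against 3 libraries cannot go below 0.1. Without PC3-DR replicate 1 the difference was -0.07 (adjusted p = 0.999 in limma), and the mean of PC3-DR replicates 2 and 3 was 0.93 times the PC3 mean. The 95% interval with all 6 libraries ran from -1.20 to 0.46. On the FPKM scale its ends correspond to 0.12 times and 1.58 times the PC3 level of ENST00000622132, with that level held fixed. The upper end depended on the libraries used. It was 0.57 without PC3-DR replicate 1 and 0.66 without PC3 replicate 3, against 0.46 with all 6. The other ABCB1 transcript sought was absent, so these values set no limit on the gene's level. In such bulk RNA, fewer cells with a transcript and less of it per cell cannot be told apart.

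**Figure D2:**
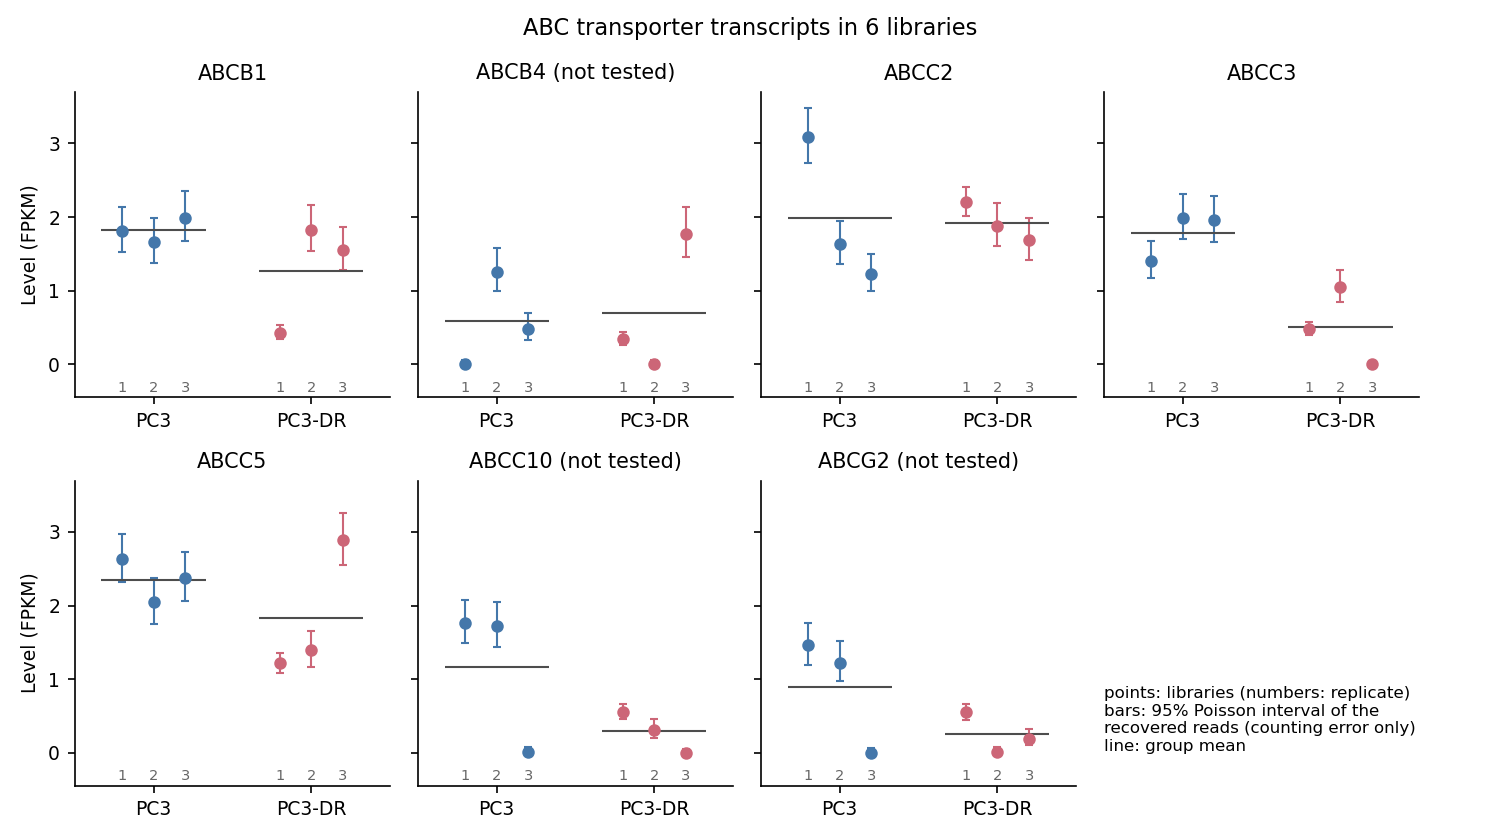
FPKM (y axis) of each listed ABC transporter transcript in the 3 PC3 and 3 PC3-DR libraries (x axis, with replicate numbers), with 95% Poisson intervals of the recovered reads and the group mean as a line. ABCB1 overlaps between the lines and is low only in PC3-DR replicate 1, while all 3 PC3-DR values of ABCC3 lie below all 3 PC3 values.

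By a rule for the pattern most like that of ABCB1, the tested transcripts ENST00000641861 and ENST00000613142 had the highest Pearson r with it over the 6 libraries, 0.998 for each. In PC3-DR replicate 1 they were listed at 0 and 0.068 FPKM, and they stood between 1.20 and 2.69 FPKM in the other 5 libraries, so the shared feature was the low value in that library. Of 24936 transcripts compared, 579 had an r above 0.95.

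ABCB4 encodes a phosphatidylcholine translocator of the bile canaliculus that is closely related to P-glycoprotein. It is the coding gene next to ABCB1 in RefSeq's list for GRCh38.p14. ABCB4 ENST00000265723 had PC3 values of 0, 1.26 and 0.48 FPKM and PC3-DR values of 0.33, 0 and 1.77 FPKM, in replicate order. Each line thus had 1 library at 0 and 1 library above 1 FPKM, and the groups overlapped. The values of 0 allow up to 0.046 FPKM in PC3 replicate 1 and 0.047 FPKM in PC3-DR replicate 2, the level of 3 reads. By the 95% Poisson interval they allow up to 0.057 FPKM in each of these libraries. PC3 averaged 0.58 ± 0.63 FPKM and PC3-DR 0.70 ± 0.94 FPKM (SD, n = 3 each). The PC3-DR library with the highest ABCB1 value had ABCB4 at 0. With 1 transcript per gene, and ABCB4 between 0 and 1.26 FPKM within PC3 alone, whether ABCB4 follows its neighbour cannot be decided.

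Among the ABCC genes in this list, ABCC3 had the largest gap between the lines in FPKM and on the log2(FPKM + 1) scale. By the ratio of means, PC3-DR to PC3, ABCC10 was lower, at 0.25 against 0.29 for ABCC3. ABCC3 encodes MRP3, a basolateral exporter of bile salts and glucuronide conjugates. ABCC3 ENST00000285238 stood at 1.41, 1.99 and 1.95 FPKM in PC3 replicates 1 to 3, from 130, 166 and 161 reads. In PC3-DR replicates 1 and 2 it stood at 0.48 and 1.05 FPKM, from 118 and 96 reads. In replicate 3 it was listed at 0, which allows up to 0.034 FPKM at the level of 3 reads. By the 95% Poisson interval it allows up to 0.041 FPKM. All 3 PC3-DR values lay below the lowest PC3 value. ABCC3 was the 1 of the 4 tested transporters whose groups did not overlap. Among all tested transcripts 6.97% were lower in PC3-DR without overlap and 4.11% were higher without overlap.

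ABCC3 averaged 1.78 ± 0.33 FPKM in the sensitive line and 0.51 ± 0.52 FPKM in the resistant line (SD, n = 3 each), a ratio of 0.29. The difference was -0.94 ± 0.39 (SE) on the log2(FPKM + 1) scale, with a 95% interval from -1.80 to -0.07. Its unadjusted p was 0.0359 and its adjusted p 0.790 in limma, so it did not pass over the whole table. The gap was as large without the library that stood apart: -0.95 without PC3-DR replicate 1, with an adjusted p of 0.996 in limma. Of the fits with a single library left out, it was smallest without PC3-DR replicate 3, the library listed at 0. It was then -0.67, with an unadjusted p of 0.101 in limma. After rescaling by the median of ratios, ABCC3 values were 1.20, 1.54 and 1.81 in PC3 and 0.81, 0.92 and 0 in PC3-DR, still without overlap. The log2 difference was then -0.72, and its 95% interval, from -1.52 to 0.07, reached 0. As deposited, the Poisson intervals of the 3 PC3-DR libraries did not overlap, at 0.40 to 0.57, 0.85 to 1.28 and 0 to 0.041 FPKM. These intervals do not cover differences in library scale. After rescaling, replicates 1 and 2 lay close together at 0.81 and 0.92, with replicate 3 at 0.

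ABCC2 encodes MRP2, an apical exporter of conjugated organic anions. ABCC2 ENST00000370449 had PC3 values of 3.09, 1.63 and 1.23 FPKM and PC3-DR values of 2.20, 1.88 and 1.69 FPKM, in replicate order. As deposited, the PC3-DR values lay within the range of the PC3 values. After rescaling by the median of ratios, PC3-DR replicate 1 stood at 3.73, above the highest PC3 library at 2.63, and the log2 difference was 0.25 (limma adjusted p = 0.887). Here PC3-DR replicate 1, with 505 reads, was the highest library of its line. PC3 averaged 1.99 ± 0.98 FPKM and PC3-DR 1.92 ± 0.26 FPKM (SD, n = 3 each). The log2(FPKM + 1) difference was 0.01 ± 0.36 (SE; limma adjusted p = 0.993), with a 95% interval from -0.79 to 0.82, or from 0.35 times to 2.17 times the PC3 level.

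ABCC5 encodes MRP5, which exports cyclic nucleotides and nucleotide analogues, and it had the highest mean of the 7. ABCC5 ENST00000334444 had PC3 values of 2.63, 2.04 and 2.38 FPKM and PC3-DR values of 1.21, 1.39 and 2.89 FPKM, in replicate order. As deposited, PC3-DR replicates 1 and 2 lay below all PC3 libraries and replicate 3 above them all. After rescaling by the median of ratios, PC3-DR replicate 1 stood at 2.05, within the PC3 range of 1.58 to 2.24, and the log2 difference was -0.08. PC3 averaged 2.35 ± 0.29 FPKM and PC3-DR 1.83 ± 0.92 FPKM (SD, n = 3 each). The log2(FPKM + 1) difference was -0.29 ± 0.36 (SE; limma adjusted p = 0.906), with a 95% interval from -1.09 to 0.52. Without PC3-DR replicate 1 it was -0.13, and without PC3-DR replicate 3 it was -0.54.

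**Figure D3:**
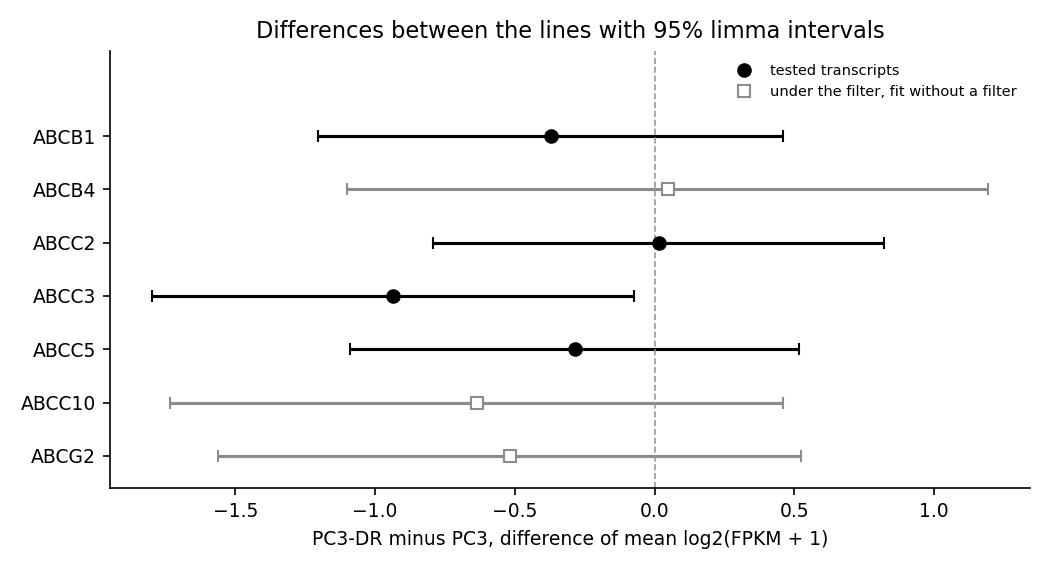
Difference of mean log2(FPKM + 1), PC3-DR minus PC3 (x axis), for the 7 listed ABC transporter transcripts (y axis), with 95% intervals from limma. Filled points are the 4 tested transcripts, open squares the 3 under the filter from a fit without one, and ABCC3 at -0.94 is the one whose interval does not reach 0.

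ABCC10 and ABCG2 shared a pattern in PC3, with high values in replicates 1 and 2 and almost none in replicate 3. The lines overlapped through PC3 replicate 3 alone, the library with 48.3% of transcripts at 0. As deposited, PC3 replicates 1 and 2 lay above all PC3-DR libraries for both genes. After rescaling by the median of ratios this order held, but for ABCG2 only narrowly. PC3 replicate 2 then stood at 0.944 and PC3-DR replicate 1 at 0.9275. For ABCC10 the same libraries stood at 1.334 and 0.9344. Within PC3-DR both were highest in replicate 1, but replicates 2 and 3 stood in opposite order. ABCC10 encodes MRP7. ABCC10 ENST00000372530 had PC3 values of 1.77, 1.73 and 0.014 FPKM and PC3-DR values of 0.55, 0.31 and 0 FPKM, in replicate order. PC3 replicates 1 and 2 were thus high and the third held 1 read, below PC3-DR replicates 1 and 2.

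ABCG2 encodes the breast cancer resistance protein BCRP, a half-transporter that works as a dimer. ABCG2 ENST00000237612 had PC3 values of 1.46, 1.22 and 0 FPKM, from 106, 80 and 0 reads, and PC3-DR values of 0.55, 0.014 and 0.19 FPKM, from 106, 1 and 13 reads. As for ABCC10, PC3 replicates 1 and 2 held the highest values and PC3 replicate 3 lay below PC3-DR replicate 1.

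ABCC10 averaged 1.17 ± 1.00 FPKM in the sensitive and 0.29 ± 0.28 FPKM in the resistant line, and ABCG2 0.89 ± 0.78 and 0.25 ± 0.27 FPKM (SD, n = 3 each). For each gene the gap between the means was within the SD of PC3. Without PC3-DR replicate 1 the PC3-DR means were 0.155 FPKM for ABCC10 and 0.0999 FPKM for ABCG2, and their ratios to PC3 moved from 0.25 to 0.13 and from 0.28 to 0.11. Of the 16492 transcripts with at least 1 FPKM in PC3 replicates 1 and 2, 16.0% were under 0.1 FPKM in PC3 replicate 3, 21.3% in PC3-DR replicate 1, 8.82% in PC3-DR replicate 2 and 7.84% in PC3-DR replicate 3. The part of these libraries in the ABCC10 and ABCG2 values was not tested. In a limma fit without a filter, the differences on the log2(FPKM + 1) scale were -0.64 ± 0.49 for ABCC10, -0.52 ± 0.46 for ABCG2 and 0.05 ± 0.51 for ABCB4 (SE), with adjusted p-values of 0.774, 0.775 and 0.986.

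Across the 7 listed transcripts, 5 had a mean log2(FPKM + 1) that was lower in PC3-DR and 2, ABCC2 and ABCB4, one that was higher. The median difference of the 7 was -0.37, that of all 102731 transcripts of the table was -0.01, and that of the 24937 tested ones was -0.13. Their summed level was 12.2, 11.5 and 8.05 FPKM in the PC3 libraries and 5.76, 6.47 and 8.09 FPKM in the PC3-DR libraries, so the highest PC3-DR library lay just above the lowest PC3 library. With median-of-ratios rescaling the sums were 10.35, 8.91 and 7.46 in PC3 and 9.74, 5.66 and 6.595 in PC3-DR, so PC3-DR replicate 1 moved from the lowest of the 6 to the second highest. The number of the 7 at 1 FPKM or more was 6, 7 and 4 in PC3 and 2, 4 and 4 in PC3-DR. Over the whole table it was 27442, 29399 and 22650 in PC3 and 14943, 26885 and 28661 in PC3-DR. PC3-DR replicate 1 was thus the lowest library, and PC3 replicate 3 the lowest of its line, in the whole table as well. In 0 of the 7 did all PC3-DR values lie above all PC3 values, against 3.28% of all transcripts of the table.

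**Figure D4:**
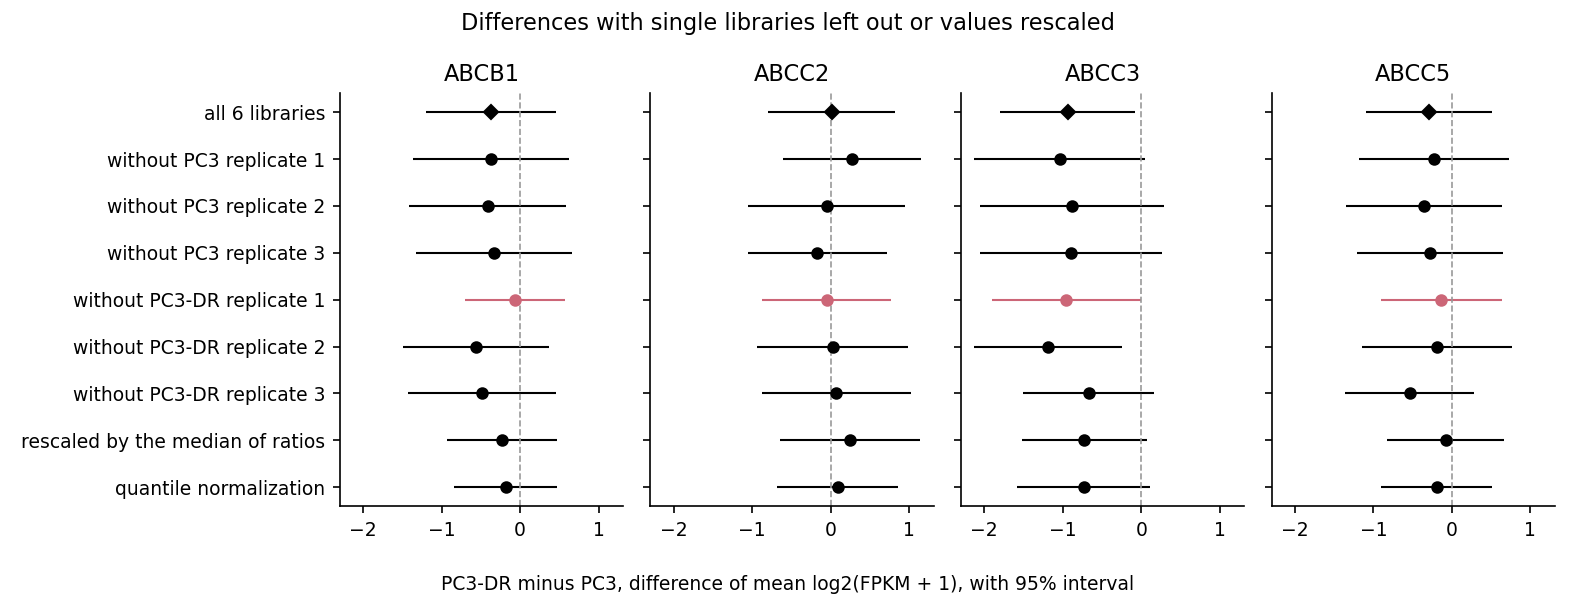
Difference of mean log2(FPKM + 1), PC3-DR minus PC3 (x axes), with 95% limma intervals, for the 4 tested transcripts with all libraries, with each library left out, and after 2 ways of rescaling (rows). ABCB1 moves from -0.37 to -0.07 without PC3-DR replicate 1 (red), while ABCC3 stays between -1.19 and -0.67.

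Some of these loci overlap other genes, which bears on how reads were assigned. In RefSeq's list for GRCh38.p14 the span of ABCB1 overlaps that of RUNDC3B, ABCB4 that of CROT, ABCC10 that of DLK2 and ABCC5 that of ABCC5-AS1. The span of ABCG2 overlaps that of the coding gene LOC124900867, and ABCC2 that of the pseudogene NANOGP6. The strand setting of the counting is not given in the sources used here, so reads of such a pair cannot be told apart where their exons overlap. ABCC3 overlapped no other gene in that list.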

How the data were processed

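Total RNA of 3 PC3 and 3 PC3-DR libraries was sequenced, per the labels' protocols. Tools given in the submitters' processing notes, with no version or role, include the aligners HISAT2 and TopHat2, the assembler StringTie, the counter featureCounts, and DESeq and limma. The notes give the mouse build mm9 for human samples, so no coordinates are printed. The authors deposited normalized tables without a stated unit, and the values were taken as FPKM because they decode as such. 0 columns belonged to no sample.

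Values of a transcript were decoded as whole reads per length and library total (Python 3.11.15, NumPy 2.4.6), with lengths between 200 and 30000 nt and reads within 0.08 of a whole number. This gave a length for 99.99% of the 71088 transcripts above 0 in at least 3 libraries. In a sample of transcripts, other scales of the totals also decoded between 93.9% and 100%, so the share decoded does not single out the scale. The totals' common scale was the one at which lengths were not mostly even and reads of a transcript rarely shared a factor. Whether totals count reads or fragments is unknown, and recovered reads served for Poisson intervals, the limits on values of 0 and an alternative fit with limma's voom.

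All 24937 transcripts passing the filter were fitted together in limma 3.58.1 (R 4.3.3), on log2 of FPKM plus a pseudocount of 1, a scale that shrinks changes of low transcripts. The model held the group alone and used an intensity trend; p-values are two-sided and Benjamini-Hochberg adjusted, with 0.05 as threshold. Decoding and test were tried on simulated data first. At most 0.002% of values above 0 were equal between 2 libraries, so all 6 were kept. All 10 transporter rows are named, and besides them the 2 transcripts most correlated with ABCB1. The members and lists were chosen with earlier results of these data known. Lists of other transporters, taxane metabolism, ABCB1 regulators and cell type markers were not analysed, because no table used here pairs transcripts with symbols. Alternatives covered pseudocount, filter, scaling, trend, robust hyperparameters, voom, a replicate block and leaving out libraries. Figures used matplotlib 3.10.9.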

Additional observations from a re-analysis of the deposited data

How the results depend on the processing

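Among the ABC transporters, 0 passed an adjusted p of 0.05 in limma in every alternative run on them, with the lowest adjusted p at 0.505 (ABCB1 and ABCC3, voom). A filter of 5 FPKM left none of them to test. In 4 of the 15 alternatives the difference cannot move by construction. In the other 11 ABCB1, ABCC3 and ABCC5 had a lower mean in PC3-DR, which for ABCC3 was largely fixed since its groups do not overlap. With single libraries left out the difference lay between -0.56 and -0.07 for ABCB1 (the latter without PC3-DR replicate 1) and between -1.19 and -0.67 for ABCC3. It was -0.69 and -2.20 with a pseudocount of 0.1, and -1.15 and -3.17 on the scale of voom. The median difference of all tested transcripts was also below 0 in these fits, at -0.24 with a pseudocount of 0.1 and -0.49 with voom. Part of the ABCB1 and ABCC3 values there is thus shared with the table as a whole. The unadjusted p of ABCC3 in limma was under 0.05 in 8 of 15, and these 8 include the 4 whose difference cannot move. It was 0.0690 after rescaling by the median of ratios and 0.0801 after quantile normalization. ABCC2 turned to -0.0044 with a pseudocount of 5, and lay between -0.17 and 0.27 with single libraries left out.

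In the whole mRNA table limma called 1 transcript. It called 0 in the fits without a trend, without a filter, with voom, with a pseudocount of 0.1 or 5, with a 5 FPKM filter or after median-of-ratios rescaling (between 57 and 3008 at an unadjusted p under 0.05), 6 with robust hyperparameters, and 0 to 1 with single libraries left out. With a replicate block it called 0, with 1707 at an unadjusted p under 0.05, and 0 ABC transporters. Replicate numbers gave no clear pairing: libraries sharing a number had deviations that correlated at 0.192, -0.004 and 0.093. The cause of these shifts was not tested. Transcripts of the table had a median of 6 to 10 recovered reads per library, which limits what low rows can show.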
